A study of Homo sapiens with 8 samples.

Results

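The genes described here are 10 components of transforming growth factor beta (TGF-beta) signalling: the ligand gene TGFB1, the receptor genes TGFBR1 and TGFBR2, the receptor-activated SMAD1, SMAD2, SMAD3 and SMAD5, the common partner SMAD4, the inhibitory SMAD7 and the corepressor TGIF1. Their members were all probe sets whose gene symbol in the array annotation of the deposited workbook was exactly one of these names, which gave 33 of the 54675 probe sets on the array for 10 of the 20282 genes that could be named. A probe set is a group of short oligonucleotides that reads one stretch of a transcript, and most of these genes had several. The rule itself uses names and no measured values.

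The cells were CEM, an established human line from a T-cell acute lymphoblastic leukaemia. Of 8 cultures, 4 carried a scrambled shRNA (control) and 4 an shRNA directed at ZMIZ1 (knockdown). The labels give no further genotype, time after transfection or second shRNA sequence, so the loss of ZMIZ1 and any other effect of that shRNA cannot be told apart. Total RNA was labelled with biotin from its 3' end and hybridized to Affymetrix HG-U133 Plus 2.0 arrays, and the values below are log2 values after robust multi-array averaging (RMA).

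In TGF-beta signalling a dimeric ligand brings type II and type I receptor kinases together, and the type I receptor phosphorylates a receptor-activated SMAD. The phosphorylated SMAD binds SMAD4, enters the nucleus and acts on promoters together with other DNA-binding proteins, coactivators and corepressors. SMAD2 and SMAD3 serve TGF-beta and activin, while SMAD1 and SMAD5 serve the bone morphogenetic proteins (BMPs). In T cells TGF-beta restrains proliferation and takes part in the differentiation of regulatory T cells. ZMIZ1 is a PIAS-like coactivator whose protein has been reported to bind SMAD3 and SMAD4, which gives the question of this comparison: which RNAs of the pathway differ when ZMIZ1 is lowered.

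ZMIZ1, the target, had values of 11.07, 11.18, 11.19 and 11.20 in the control arrays and 9.76, 9.95, 10.01 and 10.07 in the knockdown arrays on its brightest probe set. Its difference, knockdown minus control, was -1.21 ± 0.08 (SE; limma adjusted p = 0.000109 over all probe sets), which left 43.2% of the control level. Arrays of the same group correlated with r from 0.992 to 0.997 across probe sets. Of the 11 T lineage markers, CD3D, CD3E, CD3G, CD247, CD7, LCK and PTPRC were above a log2 value of 6 in both groups, and CD28 in the knockdown group, with means of 5.20 and 6.38. CD2, CD5 and TRAC were dim, the word used here for means under 6 in both groups. Of the 6 myeloid markers only CSF1R reached 6, in the knockdown group, with means of 5.93 and 6.01. Of the 5 B lineage markers CD79A and CD79B were above 6 in both groups. The mean level of the 11 T lineage markers ranged from 8.29 to 8.39 in controls and from 8.51 to 8.62 in knockdown arrays. CD3E (1.06), CD28 (1.18) and TRAC (0.27) rose, while the differences of CD3D (-0.19) and CD3G (-0.31) were below 0 and did not pass (limma adjusted p = 0.0840 and 0.132). Markers of other cell types were also above 6 in both groups: COL1A1 (means of 7.63 and 7.67), PECAM1 (7.47 and 7.70), PF4 (6.60 and 6.63) and NCAM1 (6.53 and 6.45). NKG7 was above 6 in the knockdown group, with means of 5.76 and 6.23. Of the markers of other cell types, HBB rose by 0.44 and PDGFRB fell, with a difference of -0.35, both at dim signals. The part of these markers in the results below was not tested. In bulk RNA, fewer cells of a kind and less RNA per cell cannot be told apart.

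Each of 2 technical measures separated the groups. The array medians were 5.177 to 5.205 in controls and 5.152 to 5.175 in knockdown arrays (exact permutation p = 0.0286). The 3 manufacturer probe sets for 18S ribosomal RNA, averaged, read 13.37, 13.24, 13.06 and 12.70 in control arrays 1 to 4 and 12.12, 11.67, 9.85 and 10.21 in knockdown arrays 1 to 4 (exact two-sided permutation p = 0.0286, the smallest that 70 assignments of 8 arrays can give). Knockdown arrays 3 and 4 stood apart from the other 6. The gap between the 3' and 5' probe sets of beta-actin, a measure of how far labelling reached from the 3' end, overlapped between groups, with 0.69 to 2.37 in controls and 1.62 to 2.61 in knockdown arrays (exact permutation p = 0.286). The member probe sets that passed are also given with the 18S signal as a covariate and with knockdown arrays 1 and 2 alone against the 4 controls. For the other pathway genes, counts in these settings are given, with single values for some genes only.

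In the knockdown cultures 3 of 6 SMAD2 probe sets were lower and 1 of 2 TGFB1 probe sets was higher past the threshold, and no probe set of the other 8 genes passed. Of the 33 probe sets, 3 fell, 1 rose and 29 did not pass (limma, Benjamini-Hochberg adjusted p under 0.05 over 54613 probe sets). The 3 that fell read SMAD2, and the 1 that rose read TGFB1. The share that passed was 12.1%, against 13.9% of all probe sets on the array. By direction, 9.09% of the members fell and 3.03% rose, against 5.52% and 8.38% of all probe sets. The median difference of the 33 was -0.08, and that of all probe sets was 0.01. The groups did not overlap in 8 of the 33 (24.2%, against 19.8% of all probe sets): the 3 of SMAD1, the 3 of SMAD2 that fell and both of TGFB1, which ran in opposite directions. Of the 19 members at or above 6 in a group, 3 passed (15.8%), against 28.1% of the probe sets at that level. The 10 genes together thus passed no more often than the rest of the array.

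**Figure D1:**
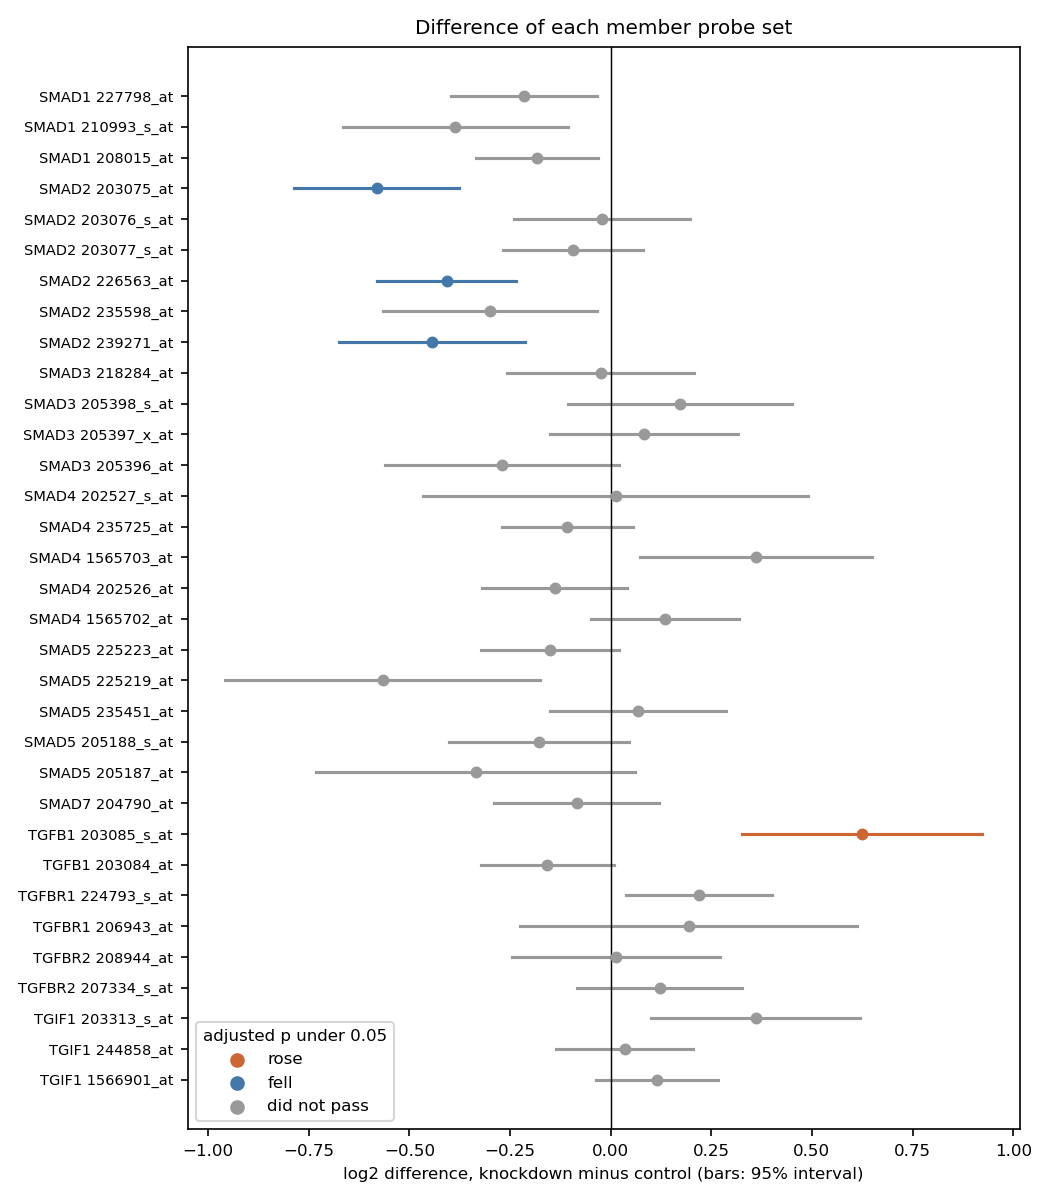
Difference of each of the 33 probe sets on the log2 scale, knockdown minus control (points), with its 95% interval from limma (bars); colour marks those with an adjusted p under 0.05. The 3 SMAD2 probe sets in blue lie between -0.58 and -0.41, and 1 TGFB1 probe set lies at 0.62.

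SMAD2 and TGFB1 are the genes that hold all the probe sets past the threshold, so the sequence around a start site of each is shown, 250 bases before to 50 after the start, from RefSeq on GRCh38.p14. The SMAD2 window is the one listed first of 2, at chr18:47930823-47931122 on the minus strand, and the single TGFB1 window is at chr19:41353873-41354172 on the minus strand. Capitals mark matches to the GC box GGGCGG and to the GC-rich BMP-SMAD motif GGCGCC, searched on both strands.
SMAD2: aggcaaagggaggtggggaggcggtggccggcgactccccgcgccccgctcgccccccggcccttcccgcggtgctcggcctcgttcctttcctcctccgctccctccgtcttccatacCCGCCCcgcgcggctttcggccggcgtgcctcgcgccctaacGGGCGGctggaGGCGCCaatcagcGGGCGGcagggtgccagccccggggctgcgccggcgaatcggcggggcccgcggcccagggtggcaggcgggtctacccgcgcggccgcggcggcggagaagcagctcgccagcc
TGFB1: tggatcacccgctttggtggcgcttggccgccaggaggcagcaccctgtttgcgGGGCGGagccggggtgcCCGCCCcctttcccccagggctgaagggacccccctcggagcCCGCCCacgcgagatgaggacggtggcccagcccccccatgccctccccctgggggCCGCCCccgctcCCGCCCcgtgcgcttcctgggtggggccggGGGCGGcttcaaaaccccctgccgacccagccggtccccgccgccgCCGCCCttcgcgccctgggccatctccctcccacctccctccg
The SMAD2 window held 3 GC boxes and 1 GC-rich motif, and the TGFB1 window 7 GC boxes and none of the GC-rich motif. These windows are rich in G and C, at 78.7% and 77.3%, against a median of 58.7% over all 35116 windows. A GC box was in 45.0% of all windows and the GC-rich motif in 19.2%. The SMAD-binding palindrome GTCTAGAC, the CAGA box CAGACA and the E box CACGTG, found in 0.202%, 16.9% and 7.26% of all windows, were in neither printed window. Over the 35 windows of the 10 genes, the GC-rich motif was found for SMAD1, SMAD2, SMAD3, SMAD4, SMAD5 and TGFBR1, and the CAGA box for SMAD3, TGFBR1 and TGIF1. That was 8 of 35 windows and 6 of 35, near the shares over all windows. A match to these letters is a description of the sequence, and the arrays did not measure binding.

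TGFB1 encodes the ligand, a latent cytokine that is released from its propeptide outside the cell. On its brighter probe set, 203085_s_at, the control arrays 1 to 4 read 7.76, 7.91, 7.63 and 7.31 and the knockdown arrays 1 to 4 read 8.07, 8.15, 8.41 and 8.48. Every knockdown array was above every control array, and knockdown arrays 3 and 4 were the highest. TGFB1 rose by 0.62 ± 0.13 (SE; limma adjusted p = 0.0129; 95% interval 0.33 to 0.92), a 1.54-fold change. The dimmer probe set, 203084_at, ran the other way, from 5.89 to 6.03 in controls and from 5.67 to 5.88 in knockdown arrays, and the groups were again apart, with a difference of -0.16 ± 0.07 that did not pass (adjusted p = 0.201). Within an array the gap between these probe sets averaged 1.69 ± 0.21 for controls and 2.47 ± 0.26 for knockdown (SD over 4 arrays each), so the rise rested on 1 of 2 probe sets. With the 18S covariate the difference of 203085_s_at was 0.39 ± 0.24 and the call ended (adjusted p = 0.534), and with knockdown arrays 1 and 2 alone it was 0.46 (adjusted p = 0.149). The equal-variance test also ended it (adjusted p = 0.0741).

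The genes whose brightest probe sets followed 203085_s_at most closely over the 8 arrays were MSRB1 (Pearson r = 0.996), UROS (0.993), DBP (0.993), AKIP1 (0.991) and MGA (0.991). MSRB1 encodes a methionine sulfoxide reductase, UROS an enzyme of haem synthesis, DBP a circadian transcription factor and MGA a MAX-binding transcription factor. These 5 are the closest of 20282 genes on the same 8 arrays, and no test is attached to them. With the group means removed, r ranged from 0.969 for MGA to 0.986 for MSRB1. The part of the 18S signal in this likeness was not tested.

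TGFBR1 encodes the type I receptor kinase, which phosphorylates SMAD2 and SMAD3. Its bright probe set 224793_s_at read 9.76, 9.68, 9.85 and 9.96 in controls and 10.06, 10.14, 9.96 and 9.98 in knockdown arrays. The groups met at control array 4 and knockdown array 3, and the difference of 0.22 ± 0.08 did not pass (limma adjusted p = 0.107; 95% interval 0.04 to 0.40). It was 0.29 with the 18S covariate and 0.28 with knockdown arrays 1 and 2 alone, without a call. The dim TGFBR1 probe set 206943_at had the widest control spread of all 33, from 4.62 to 5.56, and a difference of 0.19.

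TGFBR2, the type II receptor kinase that binds the ligand, overlapped fully between the groups. Probe set 208944_at read 6.03, 6.36, 6.53 and 6.36 in controls and 6.11, 6.35, 6.41 and 6.47 in knockdown arrays, with a difference of 0.01 ± 0.12 (limma adjusted p = 0.960). Its 95% interval ran from -0.25 to 0.27, so a change within that range remains possible. The interval does not give the smallest difference that would have passed. The dim probe set 207334_s_at had a difference of 0.12 (adjusted p = 0.439).

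SMAD2, the receptor-activated SMAD of TGF-beta and activin, was the member with the clearest change. Its brightest probe set, 203075_at, read 11.11, 10.76, 10.92 and 11.05 in control arrays 1 to 4 and 10.46, 10.46, 10.27 and 10.31 in knockdown arrays 1 to 4. All knockdown arrays lay below all controls. The signal of 203075_at fell by 0.58 ± 0.09 on the log2 scale (SE; limma adjusted p = 0.00327), to 66.8% of the control level. Probe set 226563_at read 8.78, 8.54, 8.64 and 8.57 in controls and 8.21, 8.31, 8.14 and 8.24 in knockdown arrays. The groups were again apart, with a difference of -0.41 ± 0.08 (adjusted p = 0.00737). The third, 239271_at, was dim, at 4.82, 4.43, 4.59 and 4.73 in controls and 4.30, 4.30, 4.19 and 3.99 in knockdown arrays, with a difference of -0.44 ± 0.10 (adjusted p = 0.0190).

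The remaining SMAD2 probe sets were lower on average without passing, and by unequal amounts. Probe set 235598_at ranged from 7.01 to 7.58 in controls and from 6.83 to 7.14 in knockdown arrays, with a difference of -0.30 (limma adjusted p = 0.131). Probe sets 203076_s_at and 203077_s_at had differences of -0.02 (95% interval -0.24 to 0.20) and -0.09 (-0.27 to 0.08). The interval of 203076_s_at does not reach the -0.58 of 203075_at. Within an array, 203075_at exceeded 203076_s_at by 0.52 to 0.98 in controls and by 0.06 to 0.24 in knockdown arrays, a pair chosen after its values were seen. The suffix _s_at marks probe sets that can match several transcripts. The files do not give the positions of the probes, so which SMAD2 transcripts or exons each one reads is not given here.

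With the 18S covariate the differences of 203075_at, 226563_at and 239271_at kept their sign, at -0.41, -0.31 and -0.26, and none passed (limma adjusted p = 0.319, 0.390 and 0.608). The standard error of 203075_at was 0.162 in that fit and 0.0929 without the covariate. With knockdown arrays 1 and 2 alone the differences were -0.50, -0.37 and -0.34 (adjusted p = 0.0547, 0.0822 and 0.168). The call of 239271_at also ended without knockdown replicate 4 (adjusted p = 0.0587) and in the equal-variance test (adjusted p = 0.0731), while those of 203075_at and 226563_at held in these settings and with each array left out in turn.

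**Figure D2:**
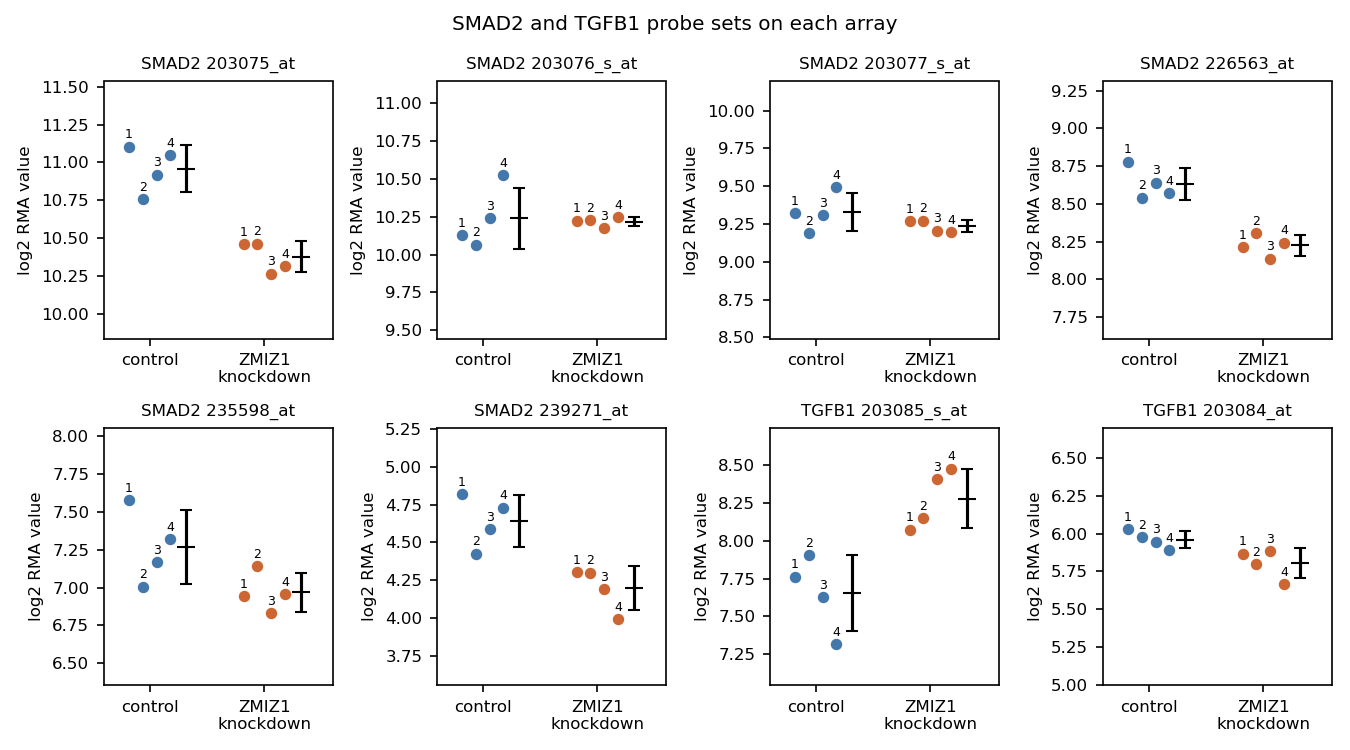
Log2 RMA values of the 6 SMAD2 and 2 TGFB1 probe sets on each array (points, numbered by replicate), with the mean and SD of each group (black bars, n = 4); every panel spans the same number of log2 units. SMAD2 203075_at, 226563_at and 239271_at and both TGFB1 probe sets show groups that do not overlap, whereas SMAD2 203076_s_at and 203077_s_at overlap.

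SMAD3, the other receptor-activated SMAD of TGF-beta, was dim on all 4 of its probe sets, with means over the 8 arrays from 4.63 to 5.80. The brightest, 218284_at, read 6.03, 5.79, 5.79 and 5.62 in controls and 5.98, 5.67, 5.83 and 5.66 in knockdown arrays. The arrays of the groups were mixed, with a difference of -0.02 ± 0.11 (limma adjusted p = 0.915). The other SMAD3 probe sets had differences of 0.17, 0.08 and -0.27, and all 4 had overlapping groups. The interval of 218284_at ran from -0.26 to 0.21, so a change in SMAD3 within that range remains possible at this dim signal. The interval is not a limit of detection.

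SMAD1 and SMAD5 carry BMP signals. SMAD1 leaned lower on each of its 3 probe sets, and the groups did not overlap in any of them, but none passed. The brightest, 227798_at, read 10.11, 10.08, 10.29 and 10.16 in controls and 10.01, 10.03, 9.79 and 9.97 in knockdown arrays, a difference of -0.21 ± 0.08 (limma adjusted p = 0.114). Probe set 210993_s_at had the largest difference of the 3, although its groups nearly met, with 8.16 to 8.53 against 7.61 to 8.16: a difference of -0.39 ± 0.13 (adjusted p = 0.0684). The dim 208015_at had a difference of -0.18 (adjusted p = 0.108). The 18S covariate moved the differences of 227798_at and 210993_s_at to -0.08 and -0.03, and that of 208015_at to -0.21. Without knockdown replicate 2 the call of 210993_s_at was made (adjusted p = 0.0499).

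SMAD5 had 4 of 5 probe sets lower and none past the threshold. Its brightest, 225223_at, read 10.23, 10.04, 10.08 and 10.20 in controls and from 9.86 to 10.04 in knockdown arrays, which met at 10.04 (difference -0.15 ± 0.08; limma adjusted p = 0.235). Probe set 225219_at had a difference of -0.57 ± 0.18, near that of the SMAD2 probe set 203075_at in size, but its controls ranged from 8.90 to 9.68 and its knockdown arrays from 8.27 to 8.92 (adjusted p = 0.0582). It passed without control replicate 2 (adjusted p = 0.0360). Adding the 18S covariate moved it to -0.20. The SMAD5 probe set 205187_at, near 6 in signal, read 6.28 and 5.86 in knockdown arrays 1 and 2 and 5.49 and 5.44 in knockdown arrays 3 and 4. Its difference of -0.34 became -0.03 with knockdown arrays 1 and 2 alone and 0.34 with the 18S covariate, and it passed without knockdown replicate 1 (adjusted p = 0.0433).

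SMAD4 is the partner that all receptor-activated SMADs share. Its brightest probe set, 202527_s_at, read 9.23, 9.12, 9.60 and 9.91 in controls and 9.80, 9.78, 8.91 and 9.42 in knockdown arrays. Control arrays and knockdown arrays each covered most of the same range, and the difference was 0.01 ± 0.22 (limma adjusted p = 0.980). Its SD of 0.36 in controls and 0.42 in knockdown arrays compares with medians of 0.17 and 0.12 over the 33 probe sets, so this probe set was the least precise of the SMAD4 readings. The steadier 235725_at ranged from 8.11 to 8.26 in controls and from 7.96 to 8.15 in knockdown arrays, with a difference of -0.11 ± 0.07 (adjusted p = 0.387; 95% interval -0.27 to 0.06). The other 3 SMAD4 probe sets were dim, and the largest of their differences, 0.36 for 1565703_at, did not pass (adjusted p = 0.0958) except without control replicate 2 (0.0205).

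SMAD7, the inhibitory SMAD that TGF-beta itself induces in many cells, was read by 1 probe set close to the bottom of the scale. It read 3.84, 3.51, 3.90 and 3.71 in controls and 3.57, 3.64, 3.71 and 3.71 in knockdown arrays, a difference of -0.08 ± 0.09 (limma adjusted p = 0.611). At so low a signal little can be said of the transcript. TGIF1, a homeodomain corepressor of SMAD complexes, was higher on all 3 of its probe sets without passing. Its brightest, 203313_s_at, read 6.12, 6.53, 6.47 and 6.63 in controls and 6.74, 6.63, 6.86 and 6.96 in knockdown arrays, and control array 4 and knockdown array 2 met at 6.63. The TGIF1 difference was 0.36 ± 0.12 (adjusted p = 0.0679), or 0.07 with the 18S covariate. It passed without control replicate 4 (0.0427) and with arrays centred on their medians (0.0498), and the other 2 TGIF1 probe sets had differences of 0.03 and 0.11.

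**Figure D3:**
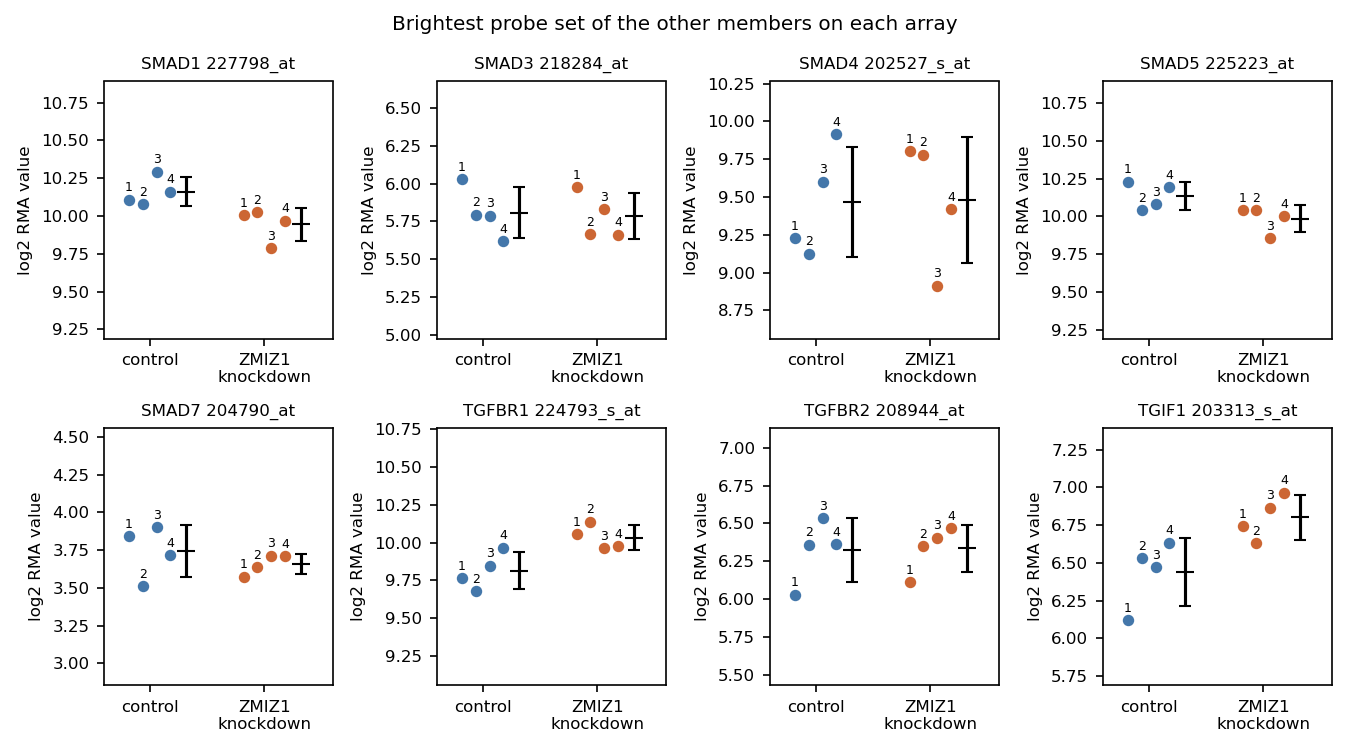
Log2 RMA values of the brightest probe set of the other 8 genes on each array (points, numbered by replicate), with the mean and SD of each group (black bars, n = 4); every panel spans the same number of log2 units. SMAD4 shows the widest spread within the groups, and SMAD1 is the panel in which the groups are apart.

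Over the 33 probe sets, no call held with the covariate or with knockdown arrays 1 and 2 alone. Under the covariate 0 of 33 passed in limma, where 1 had an unadjusted p under 0.05, against 12 of 33 without it. The same fit called 48 of all 54613 probe sets (0.0879%), and it raised the standard error of the members by a median factor of 1.82. With knockdown arrays 1 and 2 alone 0 of 33 passed as well, against 1943 of all 54613 probe sets. In that fit 5 of the 33 had an unadjusted p under 0.05. Shares of all probe sets at an unadjusted p are not given here, so these counts are not a result about the members. Calls were gained in other settings. With array weights SMAD1 227798_at, SMAD5 225219_at and TGIF1 203313_s_at also passed (limma adjusted p = 0.0480, 0.0403 and 0.0316), and 20% of all probe sets did. With probe sets under 6 left out of the fit, SMAD1 210993_s_at, SMAD5 225219_at and TGIF1 203313_s_at did (adjusted p = 0.0471, 0.0426 and 0.0459), against 34% of the 20978 probe sets in that fit. In the authors' deposited table, 4 of the 33 had a p under 0.01 with over a 1.3-fold difference, against 3980 of 54675 (7.28%), and these were the same 4 probe sets that passed here. The deposited p equals that of the equal-variance test on the same arrays to within 5.6e-09, so the match is not separate evidence. After Benjamini-Hochberg adjustment the equal-variance test called 2 of the 33.

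**Figure D4:**
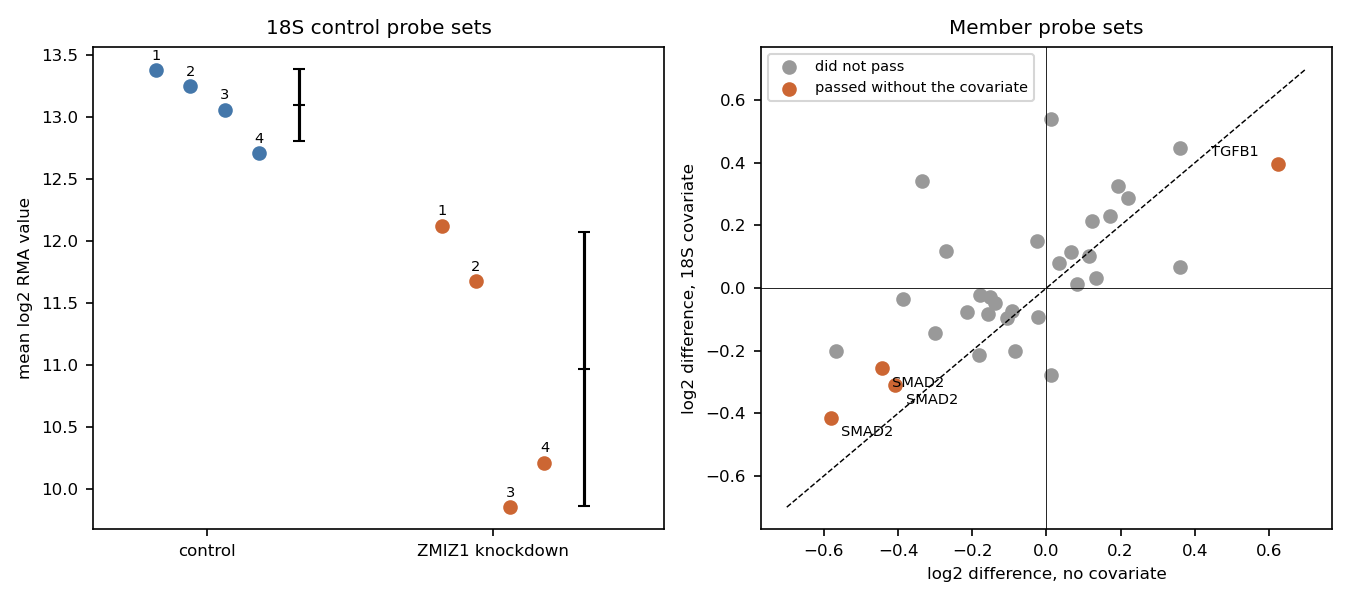
Left, mean log2 value of the 3 18S control probe sets on each array (points, numbered by replicate), with the mean and SD of each group. Right, log2 difference of each of the 33 probe sets with the 18S covariate against that without it; the dashed line marks equal values. The SMAD2 and TGFB1 probe sets that passed keep their sign and lie nearer to 0 with the covariate.

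Beyond the 10 genes, 149 other measured genes of the pathway were read by their brightest probe set and tested over 20282 genes. Of these, 16 rose, 13 fell and 120 did not pass, a share of 19.5% against 22.1% of all genes (14.7% higher and 7.38% lower). The median of the 149 differences was -0.01 and that of all genes 0.03. The pathway outside the core thus also changed about as often as other genes, and changes went both ways within each of the lists but that of the ligands.

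Among 25 other ligands, 2 fell and 0 rose (limma; 21 of the 25 were below 6 in both groups). INHBE, an activin beta subunit, had values of 5.16, 6.19, 7.11 and 7.27 in controls and 4.66, 4.82, 4.64 and 4.69 in knockdown arrays, a difference of -1.73 ± 0.35 (adjusted p = 0.00488). Its controls spread over more than 2 log2 units, while its knockdown arrays lay within 0.2 of each other. The INHBE call ended in the equal-variance test and with knockdown arrays 1 and 2 alone. With the 18S covariate the INHBE difference was -2.07 and did not pass (limma adjusted p = 0.157). GDF11 had a difference of -0.28 (adjusted p = 0.0492), a call that ended without 7 of the 8 arrays, each left out in turn, and its other 3 probe sets had differences from 0.03 to 0.40 that did not pass. Of 16 other receptors, the BMP and activin type I receptor ACVR1 rose by 0.45 ± 0.12 (adjusted p = 0.0159) and the activin type II receptor ACVR2A by 0.37 ± 0.09 (adjusted p = 0.0135). The BMP type I receptor BMPR1A fell, with a difference of -0.45 ± 0.11 (adjusted p = 0.0107), from 8.72 to 9.24 in controls to 8.39 to 8.56 in knockdown arrays. Second probe sets of ACVR2A (0.53) and BMPR1A (-0.60) passed in the same direction. On the brightest probe sets, the calls of ACVR1, ACVR2A and BMPR1A ended in the equal-variance test and with knockdown arrays 1 and 2 alone. With the 18S covariate these differences were 0.37, 0.42 and -0.60, and none passed (limma adjusted p = 0.432, 0.242 and 0.159).

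Genes that store, release or trap the ligands held 2 rises and 1 fall among 20. ITGAV, the integrin alpha subunit of receptors that release latent TGF-beta, rose by 0.54 ± 0.08 (limma adjusted p = 0.000723), from 9.46 to 9.70 in controls to 10.04 to 10.22 in knockdown arrays. LRRC32, which tethers latent TGF-beta on the surface of regulatory T cells, rose by 0.38 (adjusted p = 0.00952) at a dim signal of 4.42 to 5.04. The BMP antagonist NOG had a difference of -0.57 (adjusted p = 0.00792). Under the covariate these were 0.64, 0.31 and -0.19, and none passed (adjusted p = 0.0553, 0.378 and 0.690).

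Among 32 other SMADs and intracellular regulators, 5 rose, 2 fell and 25 did not pass. SMURF1, a ubiquitin ligase that targets SMAD1 and SMAD5 and type I receptors, rose by 0.44 ± 0.10 (limma adjusted p = 0.00683), and the SMAD phosphatases CTDSP1 and CTDSP2 rose by 0.49 and 0.43. WWP1, a related ubiquitin ligase, fell, with a difference of -0.68 ± 0.15 (adjusted p = 0.00620). Fitted with the 18S signal, the differences were 0.10 for SMURF1, -0.08 for CTDSP1, 0.13 for CTDSP2 and -0.24 for WWP1. CTDSP1 no longer passed without control replicate 3 or knockdown replicate 4 (adjusted p = 0.0582 and 0.0566), nor CTDSP2 without knockdown replicate 3 (0.0510). The inhibitory SMAD6 (-0.25) and the BMP SMAD gene SMAD9 (-0.10) did not pass.

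Of 24 DNA-binding partners and coactivators of SMADs, 3 rose, 4 fell and 17 did not pass. KAT2B, a histone acetyltransferase that acts with SMADs, rose by 0.80 ± 0.14 (limma adjusted p = 0.00258), from a mean of 7.37 to 8.17. Its dim second probe set had a difference near 0 (adjusted p = 0.993), and the mean of both gave 0.40. FOXO3, a forkhead factor that forms complexes with SMAD3 and SMAD4, changed by -0.43 ± 0.08 (adjusted p = 0.00229), and 2 of its other 3 probe sets fell as well, with -0.81 and -1.17. RUNX2 (-0.53) and the pocket protein gene RBL1 (-0.44) also fell, although none of the other RUNX2 and RBL1 probe sets passed. RBL1 was not called without control replicate 3 or knockdown replicate 4 (adjusted p = 0.0688 and 0.0586), and became -0.02 once the 18S signal entered the fit.

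The last list held 32 genes known as targets of SMAD complexes, of which 4 rose, 3 fell and 25 did not pass. The 3 largest rises were in ID1, ID2 and ID3, BMP-responsive inhibitors of basic helix-loop-helix factors, while the related ID4 was dim and did not pass (0.01, limma adjusted p = 0.954). ID1 read 7.23, 6.79, 6.40 and 6.35 in controls and 8.28, 8.12, 8.48 and 8.35 in knockdown arrays, and rose by 1.61 ± 0.17 (limma adjusted p = 0.000138). ID2 rose by 0.87 ± 0.12 and ID3 by 0.72 ± 0.14 (adjusted p = 0.000571 and 0.00335). In all 3 every knockdown array was above every control array. The fourth rise was ITGAE, the integrin alpha chain that TGF-beta induces on T cells, with 0.42 (adjusted p = 0.00395). DLX2 (-0.66), KLF10 (-0.59), a TGF-beta early response gene, and BHLHE40 (-0.42) fell. The second DLX2 probe set had a difference of -0.06, and the mean of both did not pass (-0.36, limma adjusted p = 0.0845). The BHLHE40 call ended without control replicate 1, 2 or 3 (adjusted p = 0.0617, 0.0647 and 0.0529), and the mean of its probe sets was -0.17 without a call. The calls of ITGAE and KLF10 ended with knockdown arrays 1 and 2 alone (limma adjusted p = 0.0538 and 0.0550). Both also ended with the 18S covariate (limma adjusted p = 0.283 and 0.229). ITGAE, KLF10, BHLHE40 and ID4 lie outside the naming rule and were chosen after their values were seen. In the fit with the 18S signal ID1 still passed, with 1.56 (adjusted p = 0.0465), and it was the only one of the 20 genes named by rule to do so. ID2 had 0.65 and ID3 0.49 without a call. Of these 20 genes, 12 did not pass in the equal-variance test and 15 with knockdown arrays 1 and 2 alone. Calls over all probe sets also fell there, from 7592 to 3910 and 1943. Shares of all genes in these settings are not given here, so the counts are not a result about the 20 genes. The 18S fit called 2 of the 149 genes, ID1 and the ligand gene GDF15, against 1.21% of all genes.

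**Figure D5:**
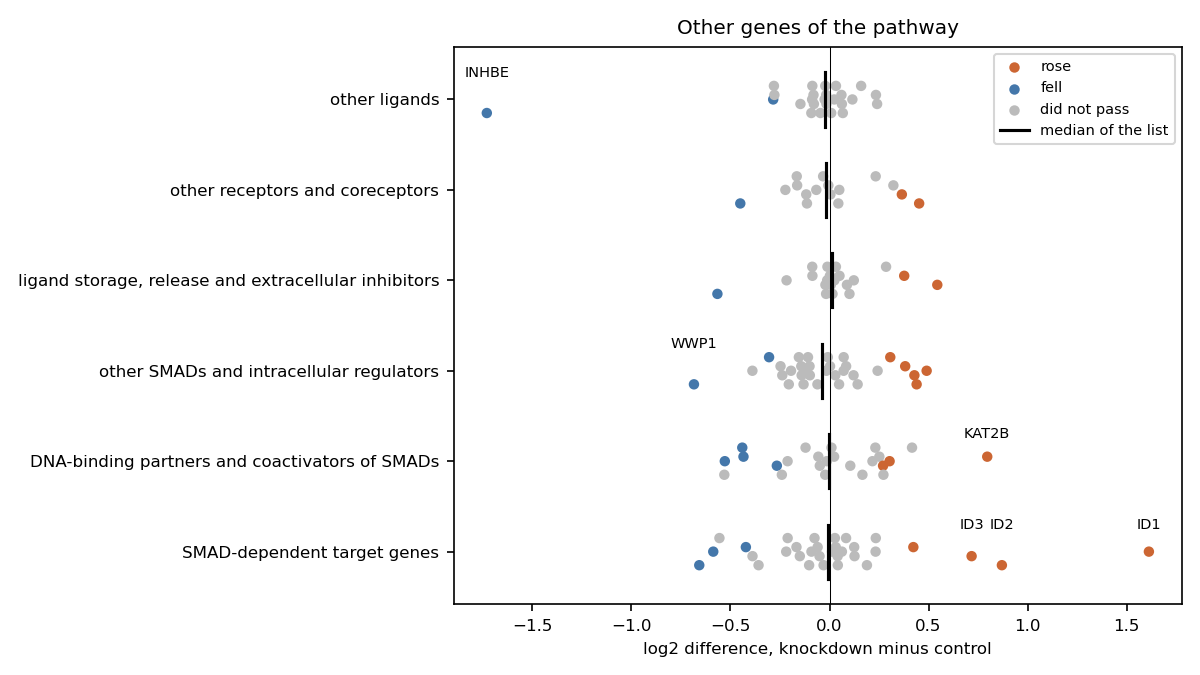
Log2 difference, knockdown minus control, of the brightest probe set of 149 pathway genes (points), grouped by role; colour marks those with an adjusted p under 0.05 over all genes, and black lines mark the list medians. The medians lie between -0.04 and 0.01, INHBE lies far below and ID1 far above the others.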

How the data were processed

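Per the file headers, the deposited workbook holds log2 values that the authors made with RMA (version not given in the sources used here), the authors' mean log2 values, an unadjusted p-value that they deposited from a two-sample test, and a fold ratio of the group means by the authors. Its log2 values matched the other deposited table to within 5.0e-09. RMA is also named per the submitters' processing notes. Precision is limited by the number of arrays, 4 a group.

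Differences were fitted with limma 3.58.1 in R 4.3.3 (lmFit, eBayes, two-sided, 6 residual degrees of freedom) on 54613 probe sets, without the 62 manufacturer controls and with no filter on dim values; 18S covariate means the average of its 3 control probe sets. For pathway genes, the brightest probe set over the 8 arrays stood for each gene with 1 symbol. Adjusted p is Benjamini-Hochberg over all probe sets for the 10 genes and over all 20282 genes for the pathway lists. Errors of differences are limma standard errors, errors of means are SD, and intervals are at 95%. A mean under 6 was called dim.

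The 10 genes, the 6 pathway lists (150 entries, 149 measured), the tests and the alternatives were chosen with earlier results of these data known. Named pathway genes were, per list, up to 4 past the threshold with the largest differences; the likeness to TGFB1 followed the same plan. Of the 22 other probe sets of these 20 genes, 7 passed in the same direction, 0 in the opposite one and 15 did not pass. The fit was tested on simulated data. Alternatives were the replicate block, array weights, a mean-variance trend, the equal-variance test, median centring, a filter on dim probe sets, the 18S covariate, knockdown arrays 1 and 2 alone, each array left out, and other choices of probe set. The series' design text calls the replicates biological without naming separate transfections, so p-values measure the spread between these cultures.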

Additional observations from a re-analysis of the deposited data

How the results depend on the processing

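The number of probe sets past the threshold, 7592, became 10919 with array weights, 3910 with the equal-variance test, 48 with the 18S covariate and 1943 with knockdown arrays 1 and 2 only, and ranged from 4438 to 7430 with an array left out (4454 when control array 3 was dropped, 4788 for knockdown array 3, 4438 for knockdown array 4). The 4 of the 33 became 7 with array weights, 2 with the equal-variance test, 0 with the 18S covariate and 0 with knockdown arrays 1 and 2 only (limma; 1 and 5 at an unadjusted p under 0.05), and ranged from 3 to 6 with an array left out. The 29 other pathway genes became 45 with array weights and 15 with the equal-variance test. They became 2 with the 18S covariate and 9 with knockdown arrays 1 and 2 only, and ranged from 23 to 36 with an array left out. The cause was not tested. Of all genes, 22.1% passed in the main fit and 1.21% with the 18S covariate. Shares of all genes in the other settings are not given here, nor shares of all probe sets at an unadjusted p. The counts are thus not a result about the 33 probe sets or the pathway genes. GDF11 turned from -0.28 to 0.11 with the mean of its probe sets, and CTDSP1 from 0.49 to -0.080 with the 18S covariate. The replicate numbers are shared by the groups, but the design calls them unpaired, and same-numbered arrays deviated with correlations of 0.057, -0.087, 0.051 and 0.051. With the replicate block, 6698 probe sets, 4 of the 33 and 28 pathway genes passed. Arrays with a median interval of 0.22 to either side leave smaller differences undecided. Some larger ones did not pass either, such as -0.57 for SMAD5 225219_at.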
